A study of Mus musculus with 10 samples.

Results

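The 42 genes described here make ribosomes. They were chosen by symbol: nucleolar scaffold proteins, proteins of the small nucleolar ribonucleoproteins (snoRNPs), processing factors of the small and large ribosomal subunits, and subunits and cofactors of RNA polymerase I (Pol I). All 42 of 42 were found among the 52550 genes of the count table and had at least 10 counts over the 10 libraries, as had 20269 genes in all. The symbols are those of the pathway's known genes, picked with earlier results of these data known. The cells were hematopoietic stem and progenitor cell (HSPC) enriched bone marrow cells of C57BL/6 mice aged 8 to 20 weeks, transformed with a retroviral MLL-AF9 fusion oncogene, and every group carried the tetR-KRAB repressor. In MLL-AF9-i139 clones doxycycline (DOX) switches on miR-139, and in the MLL-AF9-ieGFP control it switches on eGFP. Clones 1 and 2 of MLL-AF9-i139 had 5 µg/mL DOX for 48 h and clone 3 for 72 h, and each clone also had 1 library without DOX, for which the labels give no time. Of MLL-AF9-ieGFP there were 4 libraries, a treated and an untreated culture for each of 48 h and 72 h. Each MLL-AF9-i139 clone grew from 1 picked colony, so 3 libraries stand for each of its groups. The ieGFP libraries were cultures of 1 clone and hold no spread between ieGFP clones. Tests on them took their spread from all 10 libraries, those of the MLL-AF9-i139 clones included. The question was how the genes that build ribosomes stood in MLL-AF9 cells with and without DOX.

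Ribosomes are assembled in the nucleolus. Pol I transcribes the ribosomal DNA into a long precursor RNA, box C/D snoRNPs methylate it and box H/ACA snoRNPs convert uridines to pseudouridine, and large sets of processing factors then cut and fold it with ribosomal proteins into the small and the large subunit. Growing cells, leukemia cells among them, spend much of their transcription on this pathway, and the transcription factor MYC is a known activator of many of its genes. The ribosomal RNA itself was depleted from these libraries and was not measured.

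The depth of the libraries was 35133308 to 47089725 counts, and the least abundant member by total count, Polr1c, had 19499 counts. No member had fewer than 1254 counts in any library. Values are CPM, counts scaled to a common library total with TMM factors, a scale that cannot show a change in total RNA per cell. In such bulk libraries fewer cells of a type and less RNA per cell cannot be told apart. The Mir139 gene had 0 counts in all 10 libraries, and mature miRNAs are not captured by such libraries, so the counts give no check of the induction by DOX. The labelled cell type was checked with 8 markers of hematopoietic identity. Kit, Spi1, Hoxa9 and Meis1 were counted in every library, whereas Itgam had too few counts to be tested. Summed over the 8 markers the level was 1197 to 1329 CPM in untreated and 2290 to 2489 CPM in DOX-treated MLL-AF9-i139 libraries, mostly through Mpo. In MLL-AF9-ieGFP the sum was 1213 to 1330 CPM without and 1411 to 1570 CPM with DOX.

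The construct of MLL-AF9-i139 carries miR-139, which is processed into 2 strands. Their RefSeq mature sequences (GRCm38.p6, chromosome 7, plus strand) are shown because they allow the members to be searched for sites, with the seed, bases 2 to 8, in capitals.
mmu-miR-139-5p, chr7:101475382-101475403: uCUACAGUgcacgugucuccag
mmu-miR-139-3p, chr7:101475418-101475439: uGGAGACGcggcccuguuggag
The match to the miR-139-5p seed (ACTGTAG) was found in the longest annotated 3′ UTR of 7 of 42 members, 16.7%, against 13.2% of the 14056 genes tested that had a UTR. The match to the miR-139-3p seed (CGTCTCC) was found in 0 of 42 members and in 4.31% of the genes. The members' UTRs were short, with a median of 789 bases against 1267.5 over the genes. The members with a miR-139-5p match were Ncl, Nop58, Utp15, Utp20, Bms1, Wdr12 and Ddx21, with 2 matches each in Nop58 and Wdr12. The UTRs of these members ran from 270 bases in Bms1 to 8379 in Wdr12, with 5901 in Ncl and 7723 in Nop58. The flanks of the Ncl site and of a Nop58 site were nearly the same. The sites of Ncl, Utp20 and Ddx21 are printed with their flanks, the match in capitals, since these 3 members are described further on.
Ncl: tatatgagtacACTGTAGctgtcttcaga
Utp20: gagagcctgtgACTGTAGgagggagactg
Ddx21: ctttgttgataACTGTAGcttgtaagaaa
A match says only that these letters are present.

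MYC binds the E-box CACGTG, and the members' promoters were searched for it on both strands, over 250 bases before and 50 bases after each RefSeq start. Of the 36 members with such a window, 8 held an E-box (22.2%), against 10.8% of the 12232 genes tested that had one. Counted per window, since a gene can have several starts, it was in 17.8% of the members' 45 windows and in 7.15% of all 32851. They were Nop2, Pes1, Mybbp1a, Rrn3, Tsr1, Utp20, Utp4 and Wdr43. Rrn3, a factor that brings Pol I to the ribosomal DNA, held 2. Stretches around the E-boxes of Rrn3, Nop2, Utp4 and Utp20 are shown with the E-box in capitals, on the strand of the gene, as 1 example or more of the Pol I, large subunit and small subunit factors.
Rrn3, chr16:13780457-13780516, plus strand: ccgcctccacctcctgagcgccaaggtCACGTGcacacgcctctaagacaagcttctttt
Rrn3, chr16:13780624-13780683, plus strand: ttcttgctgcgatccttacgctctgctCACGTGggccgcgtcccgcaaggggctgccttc
Nop2, chr6:125131796-125131855, plus strand: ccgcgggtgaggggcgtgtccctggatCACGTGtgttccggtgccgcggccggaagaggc
Utp4, chr8:106893628-106893687, plus strand: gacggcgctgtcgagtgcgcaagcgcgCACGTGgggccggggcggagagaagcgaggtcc
Utp20, chr10:88826765-88826804, minus strand: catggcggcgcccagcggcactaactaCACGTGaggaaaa
The other motifs searched were the ETS motif CCGGAAG (33.3% of these members, 17.3% of the genes tested), the GC-box GGGCGG (77.8% and 61.3%) and the TATA motif TATAAA (5.56% and 9.62%). None of the 4 motifs contains another.

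The members were abundant messages. In untreated MLL-AF9-i139 clones their level per kilobase of exon ranged from 15.9 to 433 CPM per kb with a median of 35.8. The median over genes with at least 10 counts over the 10 libraries was 1.31. Npm1, the histone and ribosome chaperone nucleophosmin, was the highest at 433 CPM per kb, and Ncl, nucleolin, followed at 172. Mybbp1a, Ddx21 and Nhp2 came next at 104, 103 and 100 and were closer to each other than the spread of their clones. Utp15 (15.9), Wdr12 (16.2) and Polr1a (17.3) were the lowest. The 3 untreated clones were alike: the coefficient of variation over them had a median of 6.55% over the members and was highest, at 19.7%, for Dkc1. The untreated ieGFP clone stood within 0.25 on the log2 scale of the untreated MLL-AF9-i139 mean for 42 of 42 members.

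With DOX the genes took a smaller share of each MLL-AF9-i139 library. Together they held 0.979%, 0.976% and 1.03% of the counts of untreated clones 1, 2 and 3 and 0.578%, 0.582% and 0.863% of the counts with DOX. The share with DOX was thus 59.0%, 59.6% and 83.8% of the share without it, low in clones 1 and 2 and closer to the untreated share in clone 3. The ieGFP cultures held 1.00% and 1.05% without and 0.968% and 1.01% with DOX, which is 96.8% and 96.2% of the untreated share at 48 h and 72 h.

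**Figure D1:**
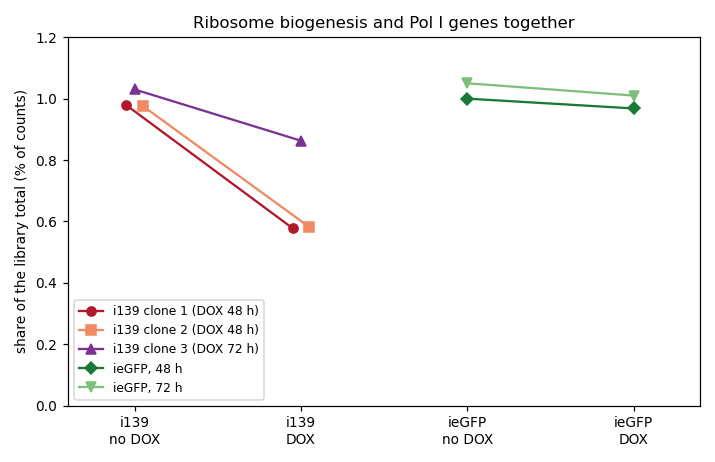
Share of each library's total count (vertical axis, %) held by the 42 genes together, without and with DOX; each line joins the pair of libraries of 1 MLL-AF9-i139 clone or of 1 MLL-AF9-ieGFP culture time. The lines of clones 1 and 2 drop from 0.979% and 0.976% to 0.578% and 0.582% and lie beside each other, the line of clone 3 ends at 0.863%, and the ieGFP lines stay between 0.968% and 1.05%.

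Gene by gene, the log2 fold change with DOX over the 3 clones was below 0 for 42 of 42 members, where 48.8% of all 19223 genes tested were below 0. The median over the members was -0.53 and that over all genes tested 0.01. In the fit without a clone term, 0 of 42 members passed an adjusted p of 0.05 (edgeR's quasi-likelihood test, Benjamini-Hochberg over all genes), where 0.0624% of all genes passed, and 40 members were lower at an unadjusted p under 0.05, against 9.22% of all genes. The libraries with and without DOX of 1 clone were paired. With the clone as a block, 37 of 42 members were significantly lower and 0 higher, against 5.33% of all genes lower and 7.05% higher. DESeq2 without the block called 23 members lower, against 3.07% of all genes. The call without the block turned on clone 3: with clones 1 and 2 alone 41 members were called lower, against 10.1% of all genes (42 with the block, against 20.9%, a fit with 1 residual degree of freedom), whereas leaving out clone 1 or clone 2 left 0. In 35 members every DOX library was below every untreated one, against 12.8% of all genes, and in 0 every one was above, against 12.0%. The 7 members whose libraries overlapped were Fbl, Dkc1, Nhp2, Nop10, Wdr43, Ddx10 and Noc2l, in each of which the DOX library of clone 3 reached the lowest untreated one. The changes below are those of the fit without the block, with the adjusted p of both fits.

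The scaffold proteins of the nucleolus were lowest with DOX relative to the untreated cells. Summed over Ncl, Npm1, Npm3 and Nolc1, the share of counts with DOX was 51.5%, 51.1% and 81.9% of the untreated share in clones 1, 2 and 3, and all 4 fell in the fit with the clone block. Nolc1, a chaperone of snoRNPs, had 308, 338 and 348 CPM in untreated clones 1, 2 and 3 and 135, 153 and 263 CPM with DOX. Every DOX library was below every untreated one, and clone 3 was the least lowered. The mean went from 331 ± 20.5 to 184 ± 69.1 CPM (SD, n = 3), a log2 fold change of -0.84 (SE 0.23), with edgeR adjusted p = 0.124 without and 0.0250 with the clone block. This was the largest change of the 42. Ncl, which binds ribosomal DNA and precursor RNA, had 1699, 1694 and 1857 CPM without DOX and 875, 884 and 1492 CPM with it. For Ncl the log2 fold change was -0.68 (SE 0.20), with edgeR adjusted p = 0.135 and, with the block, 0.0271. Npm1 had 1106, 1159 and 1197 CPM without DOX and 593, 579 and 981 CPM with it. In both genes clones 1 and 2 were near each other with DOX and clone 3 stood above them. The log2 fold change of Npm1 was -0.67 (SE 0.20), with edgeR adjusted p = 0.133 and, with the block, 0.0282. Npm1 has processed copies in the mouse genome that can share its reads, so its level is less certain than the others.

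**Figure D2:**
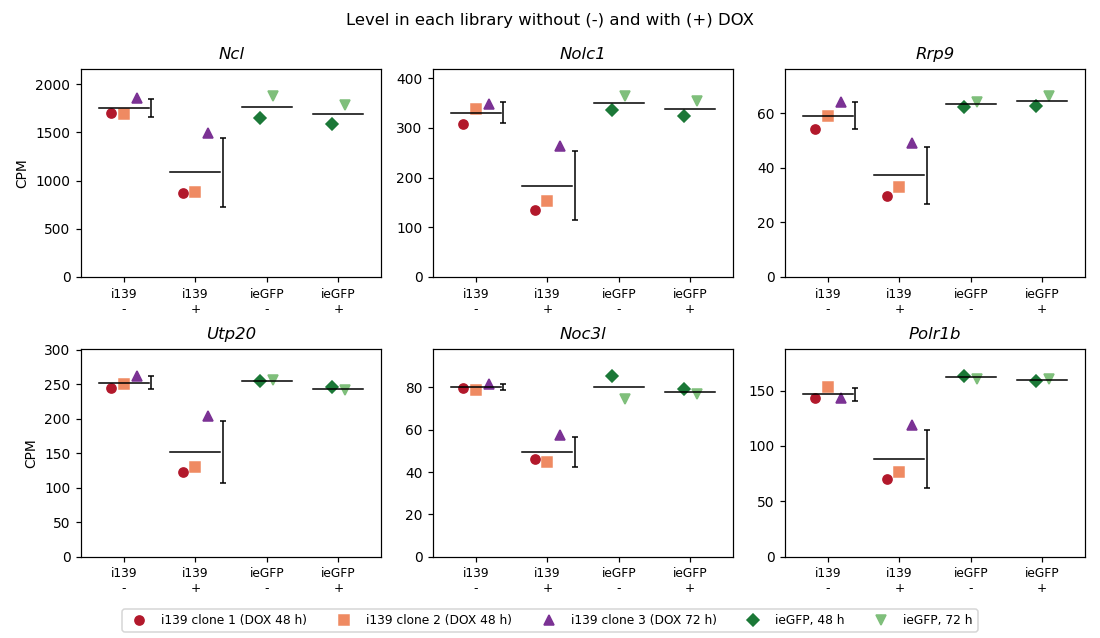
CPM of 6 members in each library (vertical axes, CPM, from 0), without (-) and with (+) DOX; points are libraries, horizontal lines group means and vertical bars the SD over 3 MLL-AF9-i139 clones. In each of the 6 every DOX-treated MLL-AF9-i139 library is below every untreated one, with clone 3 highest, and the ieGFP libraries with DOX stay near those without it.

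The proteins of box C/D snoRNPs all passed with the clone block (4 of 4). Rrp9, a protein of the snoRNP that starts small subunit processing, had 54.4, 59.1 and 64.1 CPM without DOX in clones 1, 2 and 3 and 29.7, 32.9 and 49.2 CPM with it. The groups did not overlap, and the log2 fold change was -0.66 (SE 0.19), with edgeR adjusted p = 0.129 and, with the block, 0.0248. Nop56, a core protein of the particle, had 357, 366 and 416 CPM without DOX and 211, 229 and 338 CPM with it. On the log2 scale it changed by -0.54 (SE 0.18, edgeR adjusted p = 0.156, with the block 0.0271). Nop58, its partner in the core, had 331, 297 and 341 CPM and then 212, 205 and 297 CPM, a log2 fold change of -0.43 (SE 0.15, edgeR adjusted p = 0.175, with the block 0.0361). Nop58 in DOX-treated clone 3 lay just under the untreated library of clone 2. Fbl, the methyltransferase fibrillarin, changed by -0.47 on the log2 scale, and its clone 3 library with DOX lay just above the untreated library of clone 1.

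Of the 4 box H/ACA proteins, Gar1 and Nhp2 fell with the clone block, Dkc1 just missed the threshold and Nop10 did not pass. Whether they differ from each other in their change was not tested. Gar1 had 56.8, 60.5 and 60.9 CPM without DOX and 30.3, 31.9 and 51.1 CPM with it. Its DOX libraries all lay lower, with a log2 fold change of -0.64 (SE 0.19), edgeR adjusted p = 0.136 and, with the block, 0.0315. Nhp2 had 102, 116 and 127 CPM without and 61.3, 69.5 and 106 CPM with DOX, a log2 fold change of -0.53 (SE 0.20, edgeR adjusted p = 0.192, with the block 0.0294). Dkc1, dyskerin, the pseudouridine synthase of the particle, had 175, 170 and 239 CPM without DOX and 102, 108 and 222 CPM with it. Untreated clone 3 stood above the other untreated clones for Dkc1, and its library with DOX stayed above them too. The log2 fold change of Dkc1 was -0.43 (SE 0.30), the highest adjusted p of the members at 0.444 in edgeR, and with the block its log2 fold change was -0.50 (SE 0.13) with an adjusted p of 0.0501, beside -0.56 (SE 0.11) for Nhp2. Within the clones the changes were -0.78, -0.66 and -0.11. Nop10, the smallest of the 4 core proteins, was the only member above 0 in a clone, with changes of -0.35, -0.58 and 0.05 in clones 1, 2 and 3 (edgeR adjusted p = 0.310, with the block 0.171).

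All 13 processing factors of the small subunit fell in the fit with the clone block, with fold changes from -0.72 to -0.36 on the log2 scale without it. Utp20, a large protein of the small subunit processome, had 245, 250 and 262 CPM in untreated clones 1, 2 and 3 and 123, 130 and 204 CPM with DOX. This is a log2 fold change of -0.72 (SE 0.18), with edgeR adjusted p = 0.118 and, with the block, 0.0250. Wdr75, of the subcomplex that joins the precursor during transcription, had 127, 136 and 137 CPM without and 76.2, 78.7 and 107 CPM with DOX (log2 fold change -0.60, SE 0.14, edgeR adjusted p = 0.105, with the block 0.0246). For both genes the groups did not overlap, and clone 3 had the smallest change, with its DOX library nearer the untreated ones than the other DOX libraries. Wdr43, of the same processome, had 314, 288 and 345 CPM without and 192, 191 and 307 CPM with DOX. Here clone 3 with DOX was above untreated clone 2, so the groups overlapped, with a log2 fold change of -0.45 (SE 0.19, edgeR adjusted p = 0.232, with the block 0.0400). The smallest change of the group was that of Nob1, the nuclease of the final cut, at -0.36. Part of the exon sequence of Tsr1, 32.32%, is shared with exons of another gene, so its count (log2 fold change -0.39) is less certain.

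Of the 10 large subunit factors 9 fell with the clone block, and Rrs1 had an adjusted p of 0.0583 (edgeR). Noc3l, a partner of Noc2l in large subunit assembly, had 79.8, 78.8 and 81.5 CPM without DOX and 46.2, 44.9 and 57.5 CPM with it. The 3 untreated clones were nearly equal, and the 3 treated ones lay far below. Its log2 fold change was -0.68 (SE 0.12), and its edgeR adjusted p of 0.0845, with the block 0.0197, was the lowest of the 42 in both fits. Gnl3, nucleostemin, had 160, 158 and 185 CPM without and 90.5, 87.4 and 151 CPM with DOX (log2 fold change -0.60, SE 0.21, edgeR adjusted p = 0.169, with the block 0.0281). Nop2, a methyltransferase of large subunit RNA, had 195, 220 and 206 CPM without and 128, 143 and 157 CPM with DOX. Its 3 DOX libraries were closer together than those of Gnl3, with a log2 fold change of -0.52 (SE 0.11, edgeR adjusted p = 0.0955, with the block 0.0228). Noc2l had 174, 189 and 200 CPM without and 107, 121 and 179 CPM with DOX (log2 fold change -0.45, SE 0.18, edgeR adjusted p = 0.212, with the block 0.0410), and 20.86% of its exon sequence overlaps another gene. The partners Bop1, Pes1 and Wdr12, which form 1 complex, had fold changes of -0.51, -0.32 and -0.42 on the log2 scale, and all passed with the block.

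Of the 7 Pol I genes 5 fell with the clone block. Polr1b, the second largest subunit, had 143, 153 and 144 CPM in untreated clones 1, 2 and 3 and 70.5, 76.7 and 119 CPM with DOX. Its log2 fold change was -0.72 (SE 0.18), with edgeR adjusted p = 0.118 and, with the block, 0.0296. Polr1a, the largest subunit, changed by -0.46 on the log2 scale with near-equal DOX libraries of 142, 148 and 155 CPM, and also fell with the block (edgeR adjusted p = 0.0278). Polr1c, a subunit shared with RNA polymerase III, had 45.5, 54.5 and 44.7 CPM without and 36.8, 41.6 and 39.6 CPM with DOX. Its groups were close together, and it did not pass (log2 fold change -0.28, edgeR adjusted p = 0.227, with the block 0.0746). Ubtf, the factor that binds along the ribosomal DNA, did not pass either (log2 fold change -0.27, edgeR adjusted p = 0.193, with the block 0.0759). Rrn3 changed by -0.56 on the log2 scale and passed with the block (edgeR adjusted p = 0.0255). Ddx21, an RNA helicase of the nucleolus, had 491, 528 and 576 CPM without and 289, 301 and 438 CPM with DOX (log2 fold change -0.62, SE 0.16, edgeR adjusted p = 0.120, with the block 0.0220). Mybbp1a, a nucleolar Pol I cofactor, had 557, 632 and 614 CPM without and 369, 420 and 534 CPM with DOX (log2 fold change -0.43, SE 0.14, edgeR adjusted p = 0.156, with the block 0.0345). Whether the subunits differ from each other in their change was not tested.

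**Figure D3:**
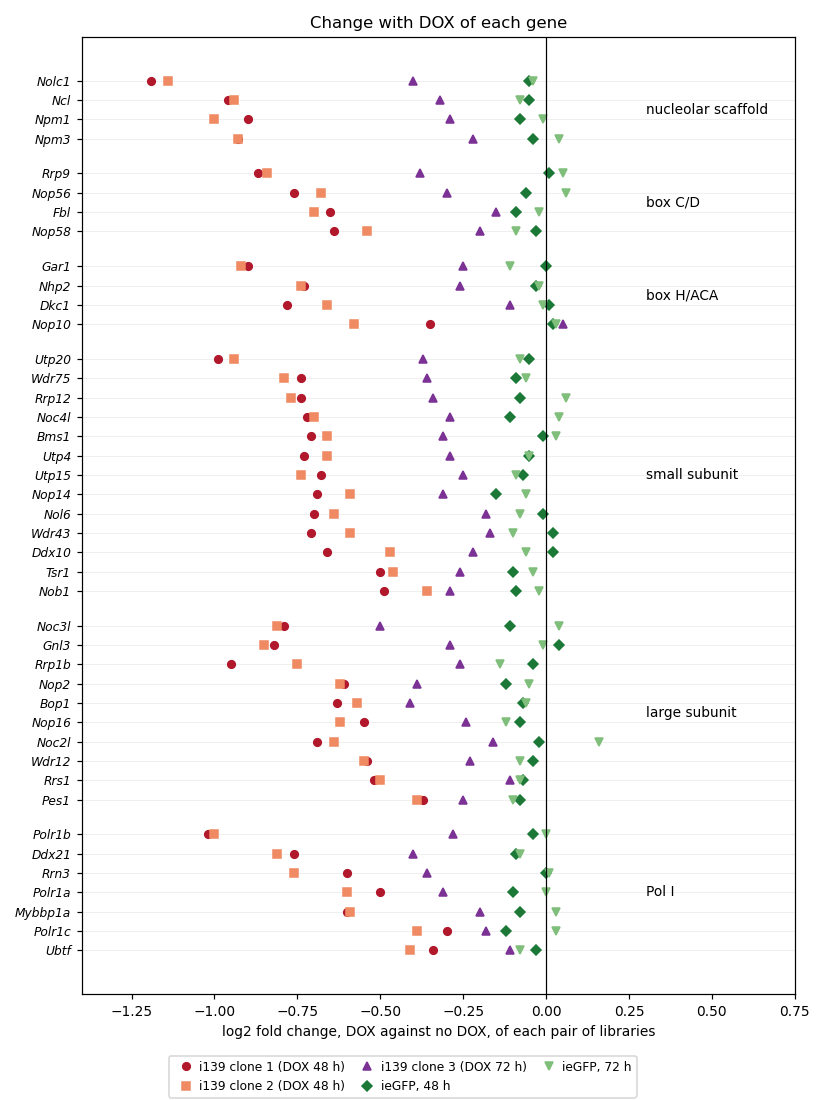
Log2 fold change with DOX of each of the 42 genes (rows, grouped by role and ordered by the change over the 3 clones) in each pair of libraries (horizontal axis). Circles and squares for clones 1 and 2 lie near each other and furthest left, triangles for clone 3 lie between them and 0 apart from Nop10 at 0.05, and the ieGFP pairs lie between -0.15 and 0.16.

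Clone 3, the clone with 72 h of DOX, was the least lowered. Its log2 fold change was the highest of the 3 clones in 42 of 42 members, against 40.8% of all genes tested. That share includes genes that rose, for which a smaller change is not the highest. Clone 3 also changed less over genes with at least 10 CPM. Between -0.1 and 0 lay 22.3% of them in clone 3 and 9.08% in the mean of clones 1 and 2. Between 0 and 0.1 lay 20.5% and 9.47%. The smaller change in clone 3 was thus not particular to the members. All 3 clones were below 0 in 41 of 42 members, against 26.5% of all genes. The median change of the members was -0.70 in clone 1, -0.66 in clone 2 and -0.27 in clone 3. The distance of clone 3 from the others was wide for Nolc1, with -1.19, -1.14 and -0.40 in clones 1, 2 and 3, and for Polr1b, with -1.02, -1.0 and -0.28. It was narrow for Noc3l, with -0.79, -0.81 and -0.50, and for Nop2, with -0.61, -0.62 and -0.39. As clone 3 was the only clone with 72 h of DOX, its difference from clones 1 and 2 has no replicate and was not tested. The clone and the length of DOX treatment cannot be told apart. Over the 42 members the changes in clones 1 and 2, from different libraries, correlated with Pearson's r = 0.90 and Spearman's rho = 0.90, and those in clones 1 and 3 with r = 0.46 and rho = 0.43. Over all 19223 genes r was 0.58 and 0.28. The points of a clone share its libraries and their depth.

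**Figure D4:**
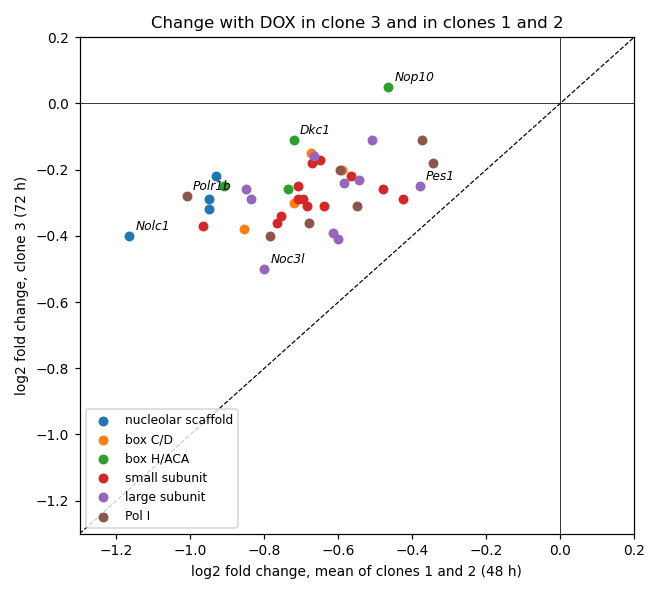
Log2 fold change with DOX in clone 3 (vertical axis) against the mean of clones 1 and 2 (horizontal axis); each point is 1 of the 42 genes, coloured by role, with equal change on the dashed line. All 42 points lie above the line.

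In the eGFP control the values with and without DOX were close. The median log2 fold change of the members was -0.05, where all genes had a median of 0.01, with a range from -0.11 to 0.08, and 33 of 42 were below 0, against 47.9% of all genes. By edgeR 0 of 42 passed, with 0.0% of all genes passing. At an unadjusted p under 0.05, 0 members were lower, against 0.558% of all genes, and DESeq2 called 0. The spread in these tests was that of all 10 libraries, clone 3 of MLL-AF9-i139 included. For Ncl the ieGFP pairs changed by -0.05 and -0.08 on the log2 scale, with an SE of 0.22. Ncl had 1652 and 1881 CPM without DOX at 48 h and 72 h and 1592 and 1782 CPM with it, and Polr1b 163 and 161 CPM and then 159 and 160 CPM. Nolc1 had 336 and 365 CPM without and 324 and 354 CPM with DOX. For each of these genes the treated culture lay within 10% of its untreated partner. The change of MLL-AF9-i139 minus that of MLL-AF9-ieGFP, fitted over all 10 libraries, had a median of -0.47 over the members and -0.01 over all genes, and it was below 0 for 42 of 42, against 51.3% of all genes. In this test of the difference itself 0 members passed by edgeR, with 0.00493% of all genes passing, a lowest adjusted p of 0.527 and 21 members lower at an unadjusted p under 0.05, against 4.21%. DESeq2 also called 0, where 0.409% of all genes passed, with 17 lower at an unadjusted p under 0.05, against 3.1%. With the clones and cultures as blocks 0 passed, where 0.187% of all genes did, with a lowest edgeR adjusted p of 0.0795. Without clone 3 the interaction passed for 35 of 42 members, against 4.44% of all genes lower. Its lowest edgeR adjusted p was then 0.000673, for Polr1b, with a difference of -0.96 on the log2 scale, and for Nolc1 the difference was -1.09. The change of all 3 clones was below that of both ieGFP pairs in 41 of 42 members, against 20.5% of all genes.

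**Figure D5:**
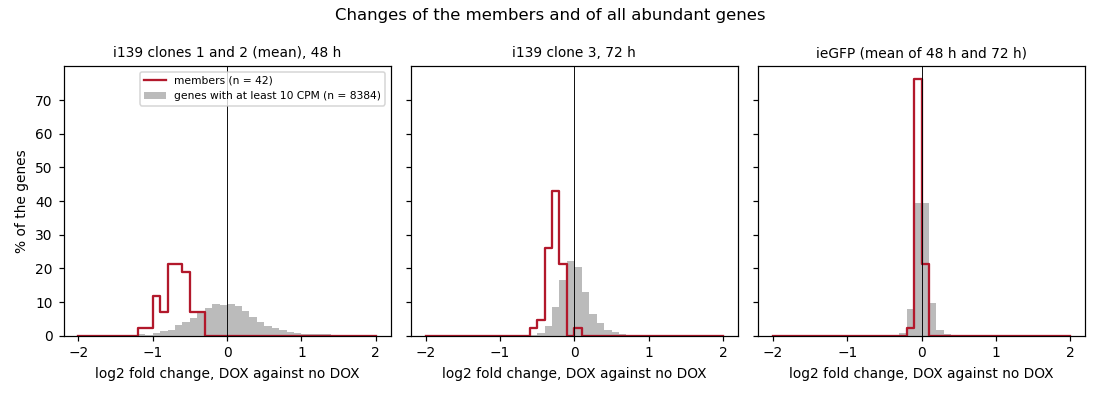
Distribution of log2 fold changes with DOX (horizontal axes, bins of 0.1; vertical axis, % of the genes) for the 42 members (red line) and for all 8384 genes with a mean of at least 10 CPM (grey bars), in the mean of clones 1 and 2, in clone 3 and in the mean of the ieGFP pairs. The members lie to the left of the bars in clones 1 and 2 and less so in clone 3, and near 0 in ieGFP, where their median in the fit is -0.05.

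The 8 members with an E-box had a median log2 fold change of -0.49 and the 28 with a window but no E-box -0.53. The 7 members with a miR-139-5p match had a median of -0.54 and the 35 without one -0.51. Whether these groups differ in their change was not tested.

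Other genes of the pathway were taken from a list of 123, of which 121 were found and 117 tested. In the fit without the block 0 passed by edgeR, with 70 lower at an unadjusted p under 0.05, against 9.22% of all genes, and DESeq2 called 39 lower, against 3.07%. With the clone block 62 were lower and 2 higher, against 5.33% and 7.05% of all genes, and without clone 3 74 were lower, against 10.1%. The median log2 fold change was -0.37. Read against the same 5.33%, with the block 30 of 43 further large subunit factors, 19 of 34 small subunit factors, 7 of 10 snoRNP assembly factors, 4 of 13 RNA exosome genes, 2 of 6 snoRNA host genes and 0 of 11 further Pol I genes were lower. Whether the lists differ from each other was not tested.

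The gene of each list with the largest change among the abundant ones is named here. Pwp2, of the small subunit processome, had 56.2, 65.2 and 63.4 CPM without and 28.4, 30.7 and 48.8 CPM with DOX (log2 fold change -0.77, SE 0.20, edgeR adjusted p = 0.120, with the block 0.0264). Urb1, a large subunit factor, had 74.4, 81.7 and 71.4 CPM and then 42.0, 41.3 and 54.1 CPM (-0.71, SE 0.13, edgeR adjusted p = 0.0882, with the block 0.0246). The snoRNA host Snhg5 had 32.7, 40.4 and 36.7 CPM and then 15, 16.4 and 29.4 CPM (-0.84, SE 0.25, edgeR adjusted p = 0.133, with the block 0.0305). All 3 repeated the order of the members, with clone 3 the least lowered. Dis3, a nuclease of the RNA exosome, changed by -0.58 on the log2 scale (edgeR adjusted p = 0.114, with the block 0.0289). The 2 genes that were higher ran the other way. Baz2a, a subunit of a complex that silences ribosomal DNA copies, had 178, 187 and 192 CPM without DOX and 304, 316 and 206 CPM with it (log2 fold change 0.58, SE 0.16, edgeR adjusted p = 0.125, with the block 0.0486). Znhit3, of the box C/D assembly machinery, had 19.7, 18.9 and 21.2 CPM and then 44.6, 43.9 and 27.1 CPM (0.97, SE 0.20, edgeR adjusted p = 0.0955, with the block 0.0282). Here too clone 3 moved least.

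Myc itself had 316, 365 and 364 CPM in untreated clones 1, 2 and 3 and 215, 228 and 317 CPM with DOX. Only the DOX library of clone 3 reached the untreated range. Its log2 fold change was -0.45 (SE 0.15), with edgeR adjusted p = 0.169 and, with the block, 0.0359. In ieGFP it had 380 and 381 CPM without and 377 and 378 CPM with DOX. The part of Myc in the change of the members was not tested.

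Of the cell type markers some were higher with DOX, some were lower, and others did not pass the test. The log2 fold changes given for markers in MLL-AF9-i139 are those of the fit without the block, in which 0 markers of any list passed. The adjusted p beside them are those of the fit with the block. Without the block the adjusted p was 0.0579 for Mpo, 0.12 for Fcgr3, 0.15 for Spi1 and 0.162 for Csf1r (edgeR). Of the 8 identity markers 7 were tested. With the block 3 rose, against 7.05% of all genes, and 1 fell, against 5.33%. Besides Mpo, Spi1 and Fcgr3 rose (log2 fold change 0.67 and 1.37, edgeR adjusted p = 0.0448 and 0.0332). Hoxa9 fell (-0.35, edgeR adjusted p = 0.0428), and Ptprc, Kit and Meis1 did not pass. Mpo, myeloperoxidase of granulocyte precursors, had 414, 615 and 580 CPM without and 1306, 1244 and 1669 CPM with DOX. It rose with the block (log2 fold change 1.40, edgeR adjusted p = 0.00955). In ieGFP Mpo was also higher with DOX, at 524 and 642 CPM without and 705 and 927 CPM with it. That log2 fold change was 0.49 (edgeR unadjusted p = 0.0422) and did not pass after adjustment. The interaction for Mpo was 0.90 (edgeR adjusted p = 0.527). Of the mature neutrophil list 8 of 10 genes were tested, and 2 rose with the block, against 7.05% of all genes. Ngp had 79.0, 56.2 and 42.4 CPM and then 158, 186 and 102 CPM, and Cxcr2 1.35, 0.889 and 0.913 CPM and then 41.6, 22.8 and 2.67 CPM. The other 6 did not pass, among them S100a9, S100a8, Ly6g and Mmp8 with log2 fold changes of 0.01, 0.27, 0.27 and -0.82. The summed level of that list was 130 to 231 CPM without and 195 to 374 CPM with DOX. In ieGFP that sum was 294 to 370 CPM without and 284 to 386 CPM with DOX, above untreated MLL-AF9-i139 in both. The 7 monocyte and macrophage markers tested summed to 369 to 437 CPM without and 293 to 438 CPM with DOX, a sum made up mostly of Ly6c2. Among them Csf1r, the receptor for macrophage colony-stimulating factor, rose with the block (log2 fold change 1.36, edgeR adjusted p = 0.0278) and the chemokine receptor Ccr2 fell (-1.54, edgeR adjusted p = 0.0220). The other 5 did not pass, with log2 fold changes of 1.71 for Adgre1, 0.71 for Cd68 and -0.29 for Ly6c2. Markers of other lineages summed to 22.1 to 29.4 and 21.6 to 39.8 CPM. The mitochondrial share of the counts was 0.823% to 1.396%. The part of these differences in the change of the members was not tested.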

How the data were processed

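Reads of 10 mouse RNA-seq libraries had been mapped to GRCm38 by the authors with STAR 2.5.3e and counted with featureCounts 1.6.0 (submitters' processing notes). The deposited counts are raw counts per gene, with no filter. Strand and overlap settings are not given in the sources used here. The tables hold 14 columns of other samples, which were not used. Gene symbols matched 52403 of 52550 identifiers. Positions, exon overlaps and 3′ UTRs were read from a GENCODE annotation of GRCm38 newer than the authors', and promoters and miRNAs from RefSeq on GRCm38.p6.

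Genes with at least 10 counts in total were fitted with edgeR 4.0.16 (R 4.3.3, TMM, quasi-likelihood test, Benjamini-Hochberg over all genes, adjusted p under 0.05), with 6 libraries and no block for MLL-AF9-i139, and with 4 groups over 10 libraries for MLL-AF9-ieGFP and the interaction. For single pairs, log2 CPM (prior count 2) of the library without DOX was subtracted from that with it. Clone numbers are those of the sample titles, and the count columns carry other clone numbers. The numbers pair libraries of the same clone: deviations from the group means correlated at 0.381, 0.288 and 0.414 within clones and at -0.315 to -0.044 between them, so blocked values are given. Alternatives were DESeq2 1.42.0, RLE size factors, 2 other count filters, the block, all libraries in 1 fit, and each pair left out. The scripts were tested on simulated data. The members and lists were chosen with earlier results of these data known. Values are given for the 2 members of each role with the highest mean CPM and the 2 with the largest change, for the gene with the largest change in each further list, and for Myc. Any other gene was named after its values were seen. Depth was 35133308 to 47089725 counts. Python 3.11.15, pandas 2.3.3, numpy 2.4.6 and matplotlib 3.10.9 were used.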

Additional observations from a re-analysis of the deposited data

Results flagged for a closer look

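In 2 of 42 members all 3 MLL-AF9-i139 clones were lower with DOX and both MLL-AF9-ieGFP pairs higher. Of all 19223 genes tested, 1020 had the same signs, so the pattern was not more frequent among the members. In the 2 members the ieGFP pairs were higher by at most 0.05 on the log2 scale. Rrp9 changed by -0.87, -0.84 and -0.38 on the log2 scale in clones 1, 2 and 3 and by 0.01 and 0.05 in the ieGFP pairs. Rrn3 changed by -0.60, -0.76 and -0.36 and by 0.00 and 0.01. The opposite signs themselves were not tested. Neither gene passed the edgeR interaction test over all 10 libraries, without a block or with it (adjusted p with the block 0.0874 and 0.094).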

How the results depend on the processing

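The median change of the members was below 0 in MLL-AF9-i139 under all alternatives run, from -0.67 to -0.46, and all 171 alternative values of the 19 named members were below 0, 65 of them with an adjusted p under 0.05 (range of adjusted p 0.000242 to 0.818). The number of members called in MLL-AF9-i139, 0 in the fit without a block, was 23 with DESeq2, 8 with a filter of 1 count in total, 37 with the clone as a replicate block, 24 with all 10 libraries in 1 fit, and 0 to 41 with a clone left out. Without clone 3 and with the clone as a block, a fit added after seeing the data, it was 42, against 20.9% of all genes called lower. For the other ribosome biogenesis genes the number was 41, 10, 64 and 41 under the same 4 settings and 0 to 76 with a clone left out. RLE size factors and a filter of 10 counts in every library left both numbers at 0. With DESeq2 3.07% of all genes were lower, and with the clone block 5.33%. The share of all genes called was not counted for the filter of 1 count in total and the fit of all 10 libraries. The numbers under those settings therefore cannot be set against all genes. The number called for the interaction was 0 to 35 with a clone or an ieGFP pair left out and 0 under the other alternatives, the block included. In MLL-AF9-ieGFP it was 0 under every alternative, and the median was -0.05 or -0.06, with -0.06 under the filter of 10 counts in every library, with DESeq2 and RLE size factors and without MLL-AF9-i139 clone 3 or the ieGFP pair of 48 h. The cause of these differences was not tested. No spike-in was used, so a change in total RNA per cell is not seen, and the 3 clones had unequal DOX times.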
